A study of Mus musculus with 6 samples.

Results

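The CXC chemokines studied here are 10 mouse genes taken by symbol and matched to their gene identifiers, of 55487 genes quantified. They fall into 4 ELR members (Cxcl1, Cxcl2, Cxcl3 and Cxcl5) and 6 non-ELR members (Cxcl9, Cxcl10, Cxcl11, Cxcl12, Cxcl14 and Cxcl16). Their mRNA was measured by RNA-seq in cultured chondrocytes, the cells of cartilage, from knee cartilage of mice whose strain is labelled C57B/6. One group of 3 libraries came from chondrocytes given M-LPS EVs, extracellular vesicles of macrophages that had been stimulated with LPS (bacterial lipopolysaccharide). The other group of 3 libraries came from chondrocytes given M-EVs, the vesicles of macrophages without LPS. Both groups received 10 µg/ml of vesicle protein for 24 h, so the comparison is between vesicle types, and cells without vesicles were not analysed here. The labels give neither the animals' age nor the source of the macrophages, and do not say whether the 3 libraries of a group came from separate cultures or animals. If they did not, the p-values measure only technical spread.

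CXC chemokines are small secreted proteins that draw leukocytes along a gradient and are named for a leading pair of cysteines separated by a single residue. ELR members carry glutamate, leucine and arginine just before these cysteines, bind the receptor Cxcr2 and attract neutrophils. Cxcl9, Cxcl10 and Cxcl11 bind Cxcr3 on activated T and NK cells and are classic interferon-induced genes. Cxcl12 acts on Cxcr4 and Ackr3 and is made constitutively by stromal cells, Cxcl14 is likewise constitutive in many epithelia and stromal tissues, and Cxcl16 is a transmembrane ligand of Cxcr6 that metalloproteinases can release. In joint tissue, chondrocytes are known to secrete ELR chemokines when stimulated by inflammatory cytokines or by ligands of Toll-like receptors.

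The division into ELR and non-ELR members can be read from the coding sequence around the CXC codons. The lines give 30 coding bases, 5′ to 3′ on the coding strand, from the GENCODE M21 transcript of the main coding form, on the GRCm38 build. Capitals mark the codons of the CXC motif and, where they are present, the 3 ELR codons directly before it.
Cxcl1: gccaatGAGCTGCGCTGTCAGTGCctgcag
Cxcl2: gccagtGAACTGCGCTGTCAATGCctgaag
Cxcl3: gccagtGAGCTGCGCTGTCAGTGCctgaac
Cxcl5: gcaacgGAGCTGCGTTGTGTTTGCttaacc
Cxcl9: ataaggaatgcacgaTGCTCCTGCatcagc
Cxcl10: gcaaggacggtccgcTGCAACTGCatccat
Cxcl12: agcctgagctaccgaTGCCCCTGCcggttc
Cxcl14: gtggacgggtccaagTGTAAGTGTtcccgg
Cxcl16: agtgtcgctggaagtTGTTCTTGTgatcgt
The ELR codons stood before the motif in 4 of 4 ELR members and in 0 of the 5 other members shown. The stretch of Cxcl1 lies at chr5:90891481-90891510, that of Cxcl2 at chr5:90904127-90904156, that of Cxcl3 at chr5:90786353-90786382 and that of Cxcl5 at chr5:90759712-90759741, all on the plus strand and each within 1 exon. Over aligned coding bases, Cxcl2 and Cxcl3 were 89.8% identical, Cxcl1 and Cxcl2 78.7%, and Cxcl1 and Cxcl5 68.4%. The transcripts of Cxcl2 and Cxcl3 shared an unbroken run of 110 bases, so reads within it could come from either gene. Gene sums of the expected counts were nevertheless whole to within 0.02 counts in 56 of the 60 member values, and the 4 others were all of Cxcl16. The whole values include all those of Cxcl2 and Cxcl3, and also the zeros of Cxcl11, which are whole in any case.

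Promoter sequence from RefSeq (GRCm38.p6) was held for 7 of the 10 members (Cxcl1, Cxcl2, Cxcl3, Cxcl9, Cxcl10, Cxcl12 and Cxcl14). The windows below belong to the 4 of these with the largest increases, and are shown for a motif of the kind bound by NF-kB, the inflammatory transcription factor. Each is written 5′ to 3′ on the gene's strand, and capitals mark matches on either strand of GGGAANNTC, an NF-kB type of motif, and of GAAANNGAA, an interferon-response type.
Cxcl1: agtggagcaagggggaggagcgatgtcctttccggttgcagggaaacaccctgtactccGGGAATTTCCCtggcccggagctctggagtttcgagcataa
Cxcl2: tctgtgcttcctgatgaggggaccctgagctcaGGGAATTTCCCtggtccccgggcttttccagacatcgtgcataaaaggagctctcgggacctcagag
Cxcl3: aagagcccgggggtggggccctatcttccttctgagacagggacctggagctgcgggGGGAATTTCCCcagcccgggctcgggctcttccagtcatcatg
Cxcl10: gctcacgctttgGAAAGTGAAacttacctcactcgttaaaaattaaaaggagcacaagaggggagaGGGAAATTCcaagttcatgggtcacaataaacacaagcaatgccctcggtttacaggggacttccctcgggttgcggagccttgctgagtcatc
The windows lie at chr5:90891115-90891214, chr5:90903769-90903868 and chr5:90785971-90786070 on the plus strand and at chr5:92348955-92349114 on the minus strand. The longest run shared by the 250 bases before the start site of Cxcl1, Cxcl2 and Cxcl3 was the 11 bases GGGAATTTCCC, found in 14 of 32851 RefSeq promoters (0.0426%). This run was picked from these 3 promoters, which are 3 of the 14, so the share tests nothing. It began 71 bases before the start site of Cxcl1, 97 before that of Cxcl2 and 73 before that of Cxcl3. Cxcl10 had GGGAAATTC starting 159 bases before its start site and GAAAGTGAA starting 213 before it. A further GGGAANNTC match of Cxcl10, GGGAAACTC, started 36 bases before its start site, outside the window shown. GGGAANNTC was present in 6 of the 7 members, including Cxcl12, which was not called, and in 3.5% of all promoters. GAAANNGAA was present in 3 of 7 (Cxcl9, Cxcl10 and Cxcl14) and in 7.13%. Of 4 further motifs searched on both strands, TTCNNNGAA was in 1 of 7 (7.02% of all promoters), TTGCNNAA in 0 (9.56%), TGANTCA in 1 (6.75%) and TATAAA in 2 (12.4%). The forms of the NF-kB and interferon-response motifs were chosen with the members' promoters in view, after other forms had been tried. A match describes letters in a window and not a bound site.

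Over all 14604 tested genes, edgeR called 31.6% at an adjusted p under 0.05, 16.4% higher and 15.2% lower with M-LPS EVs, and counts of called genes are to be read against these shares. The libraries held 20239626 to 23539911 expected counts in the M-LPS EVs group and 22274687 to 25712667 in the M-EVs group. Chondrocyte markers dominated both, with 6 markers summing to 93168 to 95310 CPM (counts scaled to a common library total) with M-LPS EVs and 108832 to 109942 CPM with M-EVs, and 5 of the 6 were called lower and 1 not called. The 8 macrophage markers summed to 30.8 to 35.6 CPM with M-LPS EVs and 21.9 to 23.9 CPM with M-EVs, and 4 of 6 tested (Adgre1, Lyz2, Cd14 and Itgam) were called higher, against 16.4% of all tested genes. The Itgam call was lost in 8 of 15 alternatives, among them DESeq2 (adjusted p 0.099) and the fits without M-EVs replicate 1 or 3 or without M-LPS EVs replicate 2 or 3 (0.61 to 0.88, adjusted p 0.062 to 0.16), and the Cd14 call in 1 of 17. Csf1r (2.17 CPM with M-LPS EVs and 1.97 CPM with M-EVs) and Cd68 (2.64 and 2.31 CPM) were not called, and Ptprc and Fcgr1 were not tested. None of the 6 neutrophil markers was abundant enough to be tested (sums of 0.188 to 0.441 CPM with M-LPS EVs and 0.136 to 0.196 CPM with M-EVs; Ly6g and Elane had no count in any library). T and NK markers summed to at most 0.0469 CPM with M-LPS EVs and 0.0443 CPM with M-EVs, with 3 of 5 at 0. The 5 endothelial markers summed to 1.37 to 2.2 CPM with M-LPS EVs and 1.45 to 1.91 CPM with M-EVs (1 tested, not called), and the 6 fibroblast markers to 1814 to 1864 CPM and 1809 to 1827 CPM in the same order of groups (1 higher, 3 lower, 2 not called). The part of macrophage RNA in the chemokine results was not tested. In bulk RNA, a change in cell numbers and a change in RNA per cell cannot be told apart.

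With M-LPS EVs, the 4 ELR chemokines and Cxcl10 rose, with fitted fold changes of 10.5 to 73.0 over their level with M-EVs, while Cxcl16 and Cxcl14 rose less than 2-fold and Cxcl12 did not pass the test. Of the 10 members, 8 had enough counts for edgeR's quasi-likelihood test, and 7 of these were called higher, 0 lower and 1 not called at an adjusted p under 0.05 (Benjamini-Hochberg over all tested genes). The shares over all tested genes were 16.4% higher and 15.2% lower. A call with a log2 fold change of at least 1 was met by 5 members and by 2.13% of tested genes, and one of at least 3 by the same 5 members and 0.342%. The median log2 fold change was 5.27 over the 4 ELR members, 0.54 over the 4 tested non-ELR members and 0.00 over all tested genes. Cxcl2, Cxcl3 and Cxcl10 passed the filter on low counts only through the M-LPS EVs libraries (0 of 3 M-EVs libraries reached its minimum of 0.444 CPM), so their entry into the test and their direction are linked and the counts and medians describe the genes without supporting a direction.

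**Figure D1:**
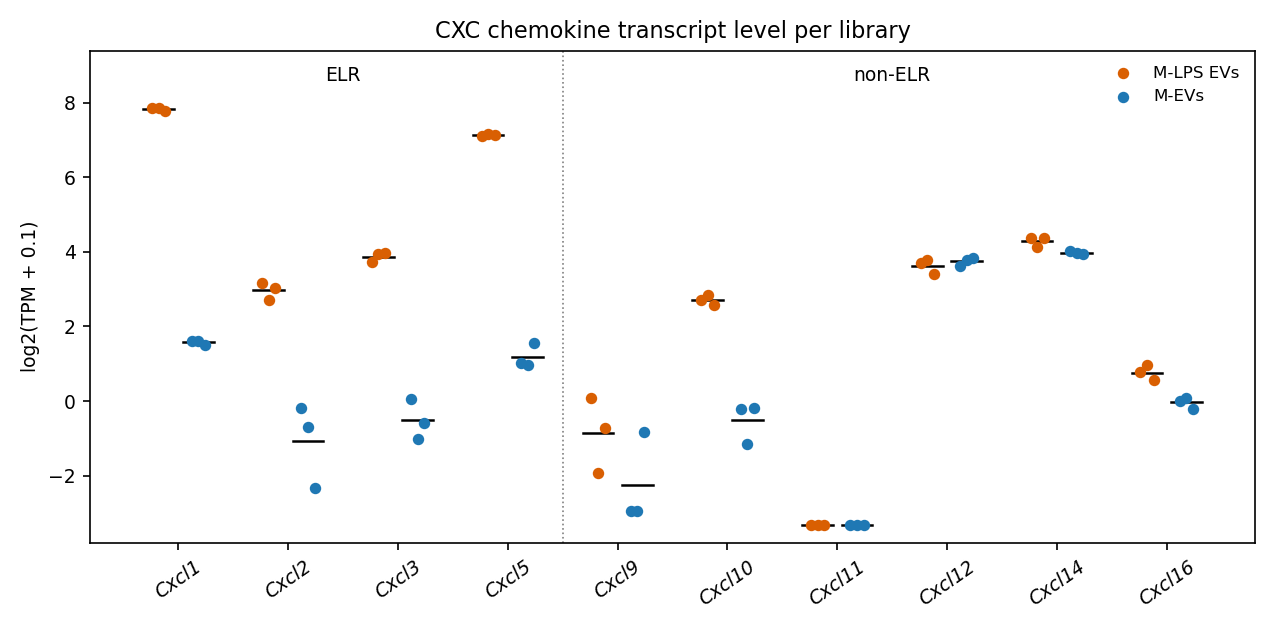
Transcript level of each CXC chemokine in each library, as log2(TPM + 0.1), with M-LPS EVs (orange) left of M-EVs (blue) for each gene. Points are libraries, bars are means of the 3 log values, and the dotted line divides ELR from non-ELR genes. The groups lie far apart for Cxcl1, Cxcl2, Cxcl3, Cxcl5 and Cxcl10, and overlap for Cxcl9 and Cxcl12.

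Cxcl1, a main neutrophil attractant of mouse tissues, had 2234, 2497 and 2044 counts with M-LPS EVs, against 38, 33 and 28 counts with M-EVs. In TPM, an abundance corrected for transcript length and scaled to a common library total, it reached 230 ± 6.21 TPM with M-LPS EVs and 2.89 ± 0.121 TPM with M-EVs (SD, n = 3 each). The groups were far apart and each was tight. The log2 fold change was 6.19 (SE 0.07, adjusted p 3.0e-28 by edgeR), a 73.0-fold difference that ranked 12 from the top among the 14604 tested genes.

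Cxcl5, known in mice as LIX and a further Cxcr2 ligand, behaved much alike in size, with 2342, 2730 and 2280 counts with M-LPS EVs, against 40, 33 and 51 counts with M-EVs. Its level was 140 ± 3.16 TPM with M-LPS EVs and 2.21 ± 0.561 TPM with M-EVs (SD, n = 3 each). The log2 fold change was 5.98 (SE 0.07, adjusted p 9.1e-28 by edgeR), or 63.3-fold, at rank 14. The 95% intervals of the log2 fold change, 6.05 to 6.34 for Cxcl1 and 5.83 to 6.13 for Cxcl5, overlapped, and the difference between the genes was not tested. The ratio of Cxcl1 to Cxcl5 TPM was 1.7, 1.62 and 1.59 with M-LPS EVs and 1.53, 1.6 and 0.962 with M-EVs, the low value coming from the M-EVs library in which Cxcl5 was highest.

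Cxcl3 and Cxcl2, the most similar pair of the ELR group in coding sequence, were much less abundant with M-LPS EVs than Cxcl1 and Cxcl5. Cxcl3 had 136, 176 and 155 counts with M-LPS EVs, against 11, 4 and 6 counts with M-EVs, or 14.6 ± 1.26 TPM and 0.63 ± 0.275 TPM (SD, n = 3 each). Its log2 fold change was 4.55 (SE 0.23, adjusted p 2.1e-14 by edgeR). Cxcl2, the gene of MIP-2, had 96, 86 and 92 counts with M-LPS EVs, against 6, 6 and 2 counts with M-EVs. In TPM these were 8.88, 6.47 and 8.07 with M-LPS EVs and 0.78, 0.52 and 0.1 with M-EVs. All M-LPS EVs libraries of both genes lay above all M-EVs libraries. Entry into the test fixed this in advance, since 0 of 3 M-EVs libraries reached the filter's minimum of 0.444 CPM for either gene. The log2 fold change of Cxcl2 was 4.36 (SE 0.29, adjusted p 6.2e-12 by edgeR). With 14 counts of Cxcl2 and 21 of Cxcl3 in the whole M-EVs group, the fold changes of both rest on few reads in that group, and their 95% intervals were 3.76 to 4.96 for Cxcl2 and 4.08 to 5.03 for Cxcl3.

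**Figure D2:**
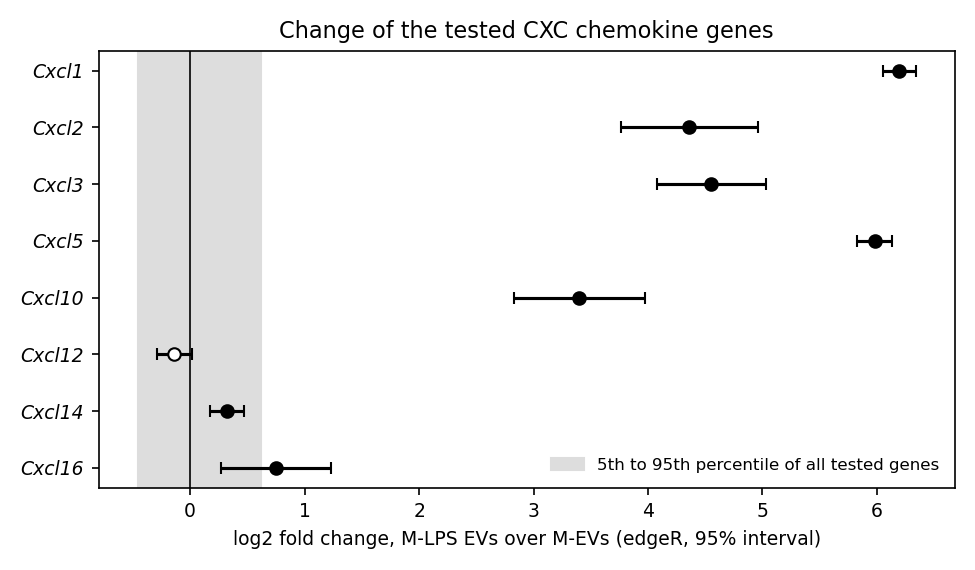
Log2 fold change (M-LPS EVs over M-EVs) of the 8 tested CXC chemokines with 95% intervals from the edgeR fit; filled points were called at an adjusted p under 0.05. The grey band is the 5th to 95th percentile of all 14604 tested genes, -0.46 to 0.62, and the 4 ELR genes and Cxcl10 lie far to its right while Cxcl12 and Cxcl14 lie inside it.

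Among the Cxcr3 ligands, Cxcl10 (IP-10) alone gave enough reads for a test. It had 77, 91 and 62 counts with M-LPS EVs, against 10, 4 and 9 counts with M-EVs, which is 6.5 ± 0.655 TPM and 0.633 ± 0.245 TPM (SD, n = 3 each). The groups did not overlap, as for 42.2% of all tested genes in either direction on the CPM scale. For Cxcl10 this was fixed by entry into the test, since 0 of 3 M-EVs libraries reached the filter's minimum of 0.444 CPM. Setting it against that share therefore tests nothing. The log2 fold change was 3.40 (SE 0.28, adjusted p 2.8e-10 by edgeR). Its 95% interval of 2.83 to 3.97 lies below those of Cxcl1, Cxcl5 and Cxcl3 but overlaps that of Cxcl2 (3.76 to 4.96). The differences between these genes were not tested. The ratio of Cxcl1 to Cxcl10 TPM was 35.9, 32.6 and 38.1 with M-LPS EVs and 3.84, 8.46 and 3.53 with M-EVs.

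Cxcl9 (MIG), the interferon-gamma induced Cxcr3 ligand, stayed near the detection limit with 11, 6 and 1 counts with M-LPS EVs, against 1, 1 and 1 counts with M-EVs. The libraries of the M-LPS EVs group differed widely among themselves, and the lowest of them held the same single count as each M-EVs library. The ratio of summed counts, 18 with M-LPS EVs to 3 with M-EVs, was 6.43 after scaling for library size (exact conditional 95% interval 1.88 to 34.1, counting error only). Cxcl9 failed the filter on low counts. Without a filter its edgeR log2 fold change was 2.53 (adjusted p 0.038), whereas limma-trend on log2(TPM + 1) without a filter gave 0.38 (adjusted p 0.46). Its TPM were uneven (0.95, 0.16 and 0.5 with M-LPS EVs, 0.03, 0.03 and 0.46 with M-EVs). In 2 libraries, M-LPS EVs replicate 3 and M-EVs replicate 3, the whole count lay on the retained-intron transcript Cxcl9-202 of 370 bases, and in M-LPS EVs replicate 1 that transcript held 1.36 of the 11 counts and 0.66 of the 0.95 TPM.

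Cxcl11 (I-TAC), the last of the Cxcr3 ligands, had 0 counts in all 6 libraries. The limit that a count of 0 allows, 3 counts, is 0.127 to 0.147 CPM per library with M-LPS EVs and 0.118 to 0.136 CPM with M-EVs. GENCODE classes the gene as a polymorphic pseudogene, and its coding transcript and its pseudogene transcript were both at 0.

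Cxcl16, the transmembrane chemokine, had 43, 55 and 33 counts with M-LPS EVs, against 32, 26 and 25 counts with M-EVs (1.61 ± 0.24 TPM and 0.877 ± 0.0971 TPM; SD, n = 3 each). The lowest M-LPS EVs library exceeded the highest M-EVs library by 1 count, or 1.62 against 1.26 CPM after scaling. The groups lay apart in this direction for 21.5% of all tested genes on the CPM scale. The log2 fold change was 0.75 (SE 0.23, adjusted p 0.015 by edgeR). The call was lost with DESeq2 (0.75, adjusted p 0.055), with limma-trend on TPM (0.47 to 0.80, adjusted p 0.066 to 0.075), against a change of at least 1.2-fold (adjusted p 0.099) and without M-LPS EVs replicate 2 (0.62, adjusted p 0.094).

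Cxcl14 (BRAK) was the most abundant CXC chemokine with M-EVs and changed little. It had 408, 390 and 394 counts with M-LPS EVs, against 384, 321 and 319 counts with M-EVs, and 20.5, 17.5 and 20.6 TPM with M-LPS EVs, against 16.2, 15.6 and 15.2 TPM with M-EVs. Every M-LPS EVs library was above every M-EVs library, as for 21.5% of all tested genes on the CPM scale. The log2 fold change was 0.32 (SE 0.07, adjusted p 9.8e-04 by edgeR). The value lies within the 5th to 95th percentile of all tested genes, and the call was lost against a change of at least 1.2-fold (adjusted p 0.53) and with limma-trend on unfiltered TPM (0.30, adjusted p 0.068).

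Cxcl12 (SDF-1), the homeostatic ligand of Cxcr4, had 398, 477 and 338 counts with M-LPS EVs, against 467, 468 and 489 counts with M-EVs, or 12.4 ± 1.57 TPM and 13.4 ± 0.983 TPM (SD, n = 3 each). The groups overlapped, and the log2 fold change of -0.14 (SE 0.07, adjusted p 0.18 by edgeR) was not called. Its 95% interval was -0.29 to 0.02. Without M-EVs replicate 1 the value was -0.21 and was called (adjusted p 0.043).

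On the TPM scale, which allows levels to be set against each other, the order of the genes differed between the groups. With M-LPS EVs the order from high to low was Cxcl1, Cxcl5, Cxcl14, Cxcl3, Cxcl12, Cxcl2, Cxcl10, Cxcl16, Cxcl9 and Cxcl11. Only Cxcl3 and Cxcl12, and Cxcl2 and Cxcl10, were neighbours with overlapping ranges. With M-EVs it was Cxcl14, Cxcl12, Cxcl1, Cxcl5, Cxcl16, Cxcl10, Cxcl3, Cxcl2, Cxcl9 and Cxcl11. There Cxcl1 overlapped with Cxcl5, and each gene from Cxcl16 to Cxcl9 overlapped with its neighbour.

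The summed TPM of the 4 ELR genes was 393, 398 and 386 with M-LPS EVs, against 6.6, 5.72 and 6.28 with M-EVs. The sum of the 6 non-ELR genes was 42.6, 40.3 and 38.9 with M-LPS EVs, against 30.3, 30.7 and 31.5 with M-EVs. The ratio of group means was thus 63.3 for the ELR sum and 1.32 for the non-ELR sum. Other CXC ligands are not in these sums, among them Pf4 at 7.99 TPM with M-LPS EVs and 2.88 TPM with M-EVs. ELR genes made up 90.6% ± 0.35 of the 10 members' TPM with M-LPS EVs and 16.7% ± 1.1 with M-EVs (SD, n = 3 each). Cxcl1 alone held 53.0% ± 0.608 with M-LPS EVs and 7.81% ± 0.459 with M-EVs, and Cxcl5 held 32.4% ± 0.735 and 5.96% ± 1.4 in the same order. The largest shares with M-EVs were those of Cxcl14, at 4.52% with M-LPS EVs and 42.4% with M-EVs, and of Cxcl12, at 2.86% with M-LPS EVs and 36.3% with M-EVs. Shares of a sum are tied to each other, and the fitted levels of Cxcl14 and Cxcl12 themselves with M-LPS EVs were 1.25 and 0.91 times those with M-EVs.

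**Figure D3:**
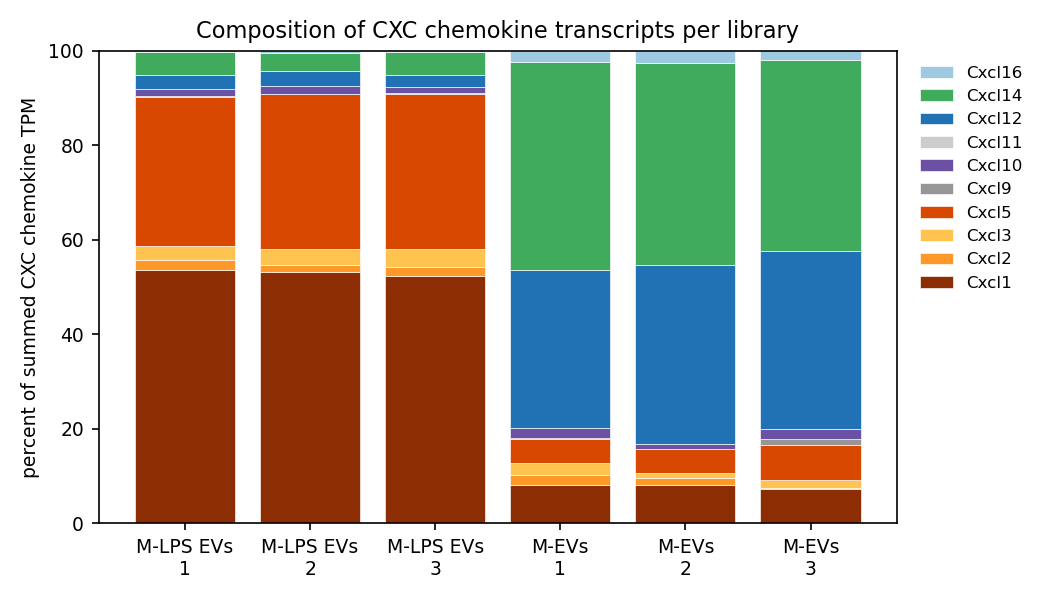
Share of each studied CXC chemokine in the summed TPM of the 10 genes, in percent per library. The 3 M-LPS EVs libraries stand left of the 3 M-EVs libraries. The ELR genes (brown to orange) fill 90.2% to 90.8% of the bars with M-LPS EVs and 15.7% to 17.9% with M-EVs, where Cxcl14 (green) and Cxcl12 (blue) fill most of the rest.

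The 10 genes have 27 transcripts in the files, of which 13 had enough counts for a test across all 37245 tested transcripts. Of these 13, 7 were called higher and none lower, beside 4.45% of all tested transcripts called in either direction and 2.45% called higher. They were the main coding transcripts of Cxcl1, Cxcl2, Cxcl3, Cxcl5 and Cxcl10 and the retained-intron transcripts Cxcl1-202 and Cxcl5-202. A retained-intron transcript keeps intron sequence and is not expected to encode the full protein. Cxcl1-201 and Cxcl5-201 reached the filter's minimum of 0.444 CPM in all 3 M-EVs libraries, whereas the other 5 called transcripts reached it in 0 of 3 and entered the test only through the M-LPS EVs libraries. For those 5, entry and direction are linked, and the count of 7 does not support a direction. RSEM's uncertainty in sharing reads among transcripts was not modelled, so p-values of transcripts are less secure than those of genes.

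For Cxcl1, the coding transcript Cxcl1-201 held 96.7, 96.7 and 96.8 percent of the gene's abundance with M-LPS EVs, against 85.8, 85.8 and 95.7 percent with M-EVs. Its log2 fold change was 6.45 (SE 0.05, adjusted p 3.0e-07 by edgeR). The retained-intron Cxcl1-202 held 3.31, 3.26 and 3.21 percent with M-LPS EVs and 14.2, 14.2 and 4.33 percent with M-EVs, with expected counts of 158, 173 and 140 against 10.2, 8.91 and 2.56. Its log2 fold change was 4.50 (SE 0.40, adjusted p 0.0025 by edgeR). Cxcl1-202 entered the test only through the M-LPS EVs libraries, so this call supports no direction. The percentages of Cxcl1-202 with M-EVs rest on at most 10.2 counts per library. Cxcl5-202, the retained-intron form of Cxcl5, held 5.87, 4.91 and 4.18 percent with M-LPS EVs and 18.1, 11.5 and 3.73 percent with M-EVs, and M-EVs replicate 3 falls below all M-LPS EVs libraries. Cxcl3-202 and Cxcl10-204, further retained-intron forms, had 22.1 and 18.1 expected counts in all with M-LPS EVs and 0 with M-EVs, and neither was tested. The call of Cxcl2-201 (log2 fold change 4.63, adjusted p 0.031) was lost in 5 of the 6 fits that left out a library, with adjusted p 0.073 to 0.13 in those 5 and 0.012 without M-EVs replicate 3.

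The non-ELR genes with a second form showed no called transcript other than Cxcl10-201. Cxcl12 was spread over Cxcl12-202 (44.3 percent with M-LPS EVs and 39.3 percent with M-EVs), Cxcl12-203 (40.0 and 45.0 percent), Cxcl12-201 (9.14 and 9.16 percent) and the retained-intron Cxcl12-204 (6.52 and 6.59 percent), each a mean over 3 libraries. Their log2 fold changes were 0.08, -0.26, -0.15 and -0.17, with adjusted p from 0.57 to 0.92. Cxcl14-201 carried 99.6 percent of its gene with M-LPS EVs and all of it with M-EVs, and had the gene's log2 fold change of 0.32 but an adjusted p of 0.12 among transcripts. Cxcl16-202, annotated as a target of nonsense-mediated decay, held 21.5, 23.6 and 33.1 percent of Cxcl16 with M-LPS EVs and 3.79, 22.9 and 0 percent with M-EVs, from 16.6 and 3.48 expected counts in all.

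Of the 10 genes, 7 lie on mouse chromosome 5 within 1606 kb (GRCm38, chr5:90759360-92365485), where the ELR genes span 147 kb and Cxcl9, Cxcl10 and Cxcl11 span 44.1 kb, with 1415 kb between the blocks. The other members lie elsewhere, Cxcl12 at chr6:117168535-117181367, Cxcl14 at chr13:56288643-56296551 and Cxcl16 at chr11:70453983-70459984. The interval on chromosome 5 holds 18 other protein-coding genes, of which 11 were tested, 4 called higher, 2 lower and 5 not called, where 16.4% of all tested genes were called higher and 15.2% lower. These 6 called genes are named for their position, after their values had been seen. Pf4, platelet factor 4 and itself a CXC ligand within the ELR block, rose by 1.48 (log2, SE 0.34), and Ereg, an EGF receptor ligand between the blocks, rose by 2.95 (SE 0.17). Naaa, near the Cxcr3 ligands, rose by 0.38 (SE 0.09), a call lost against a change of at least 1.2-fold (adjusted p 0.23). U90926, close to Naaa, had 82 counts in all with M-LPS EVs and 10 with M-EVs, and a fitted log2 fold change of 3.09 (SE 0.45). It passed the filter only through the M-LPS EVs libraries, with 0 of 3 M-EVs libraries at its minimum, so it had to differ to be tested and its call supports no direction. Parm1 and Uso1, between the blocks, fell, with log2 fold changes of -0.51 (SE 0.05) and -0.22 (SE 0.02), and the Uso1 call was lost against a change of at least 1.2-fold. Mthfd2l, the next gene after Cxcl2, had a log2 fold change of 0.24 that was not called (adjusted p 0.084 by edgeR) but was without M-LPS EVs replicate 1 (0.34, adjusted p 0.019), and Sdad1, the nearest tested gene before Cxcl9, one of 0.01 (adjusted p 0.93). Ppbp and Cxcl15, the other CXC ligands of the ELR block, had 20 and 8 counts in all with M-LPS EVs and 1 and 1 with M-EVs, too few to be tested.

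**Figure D4:**
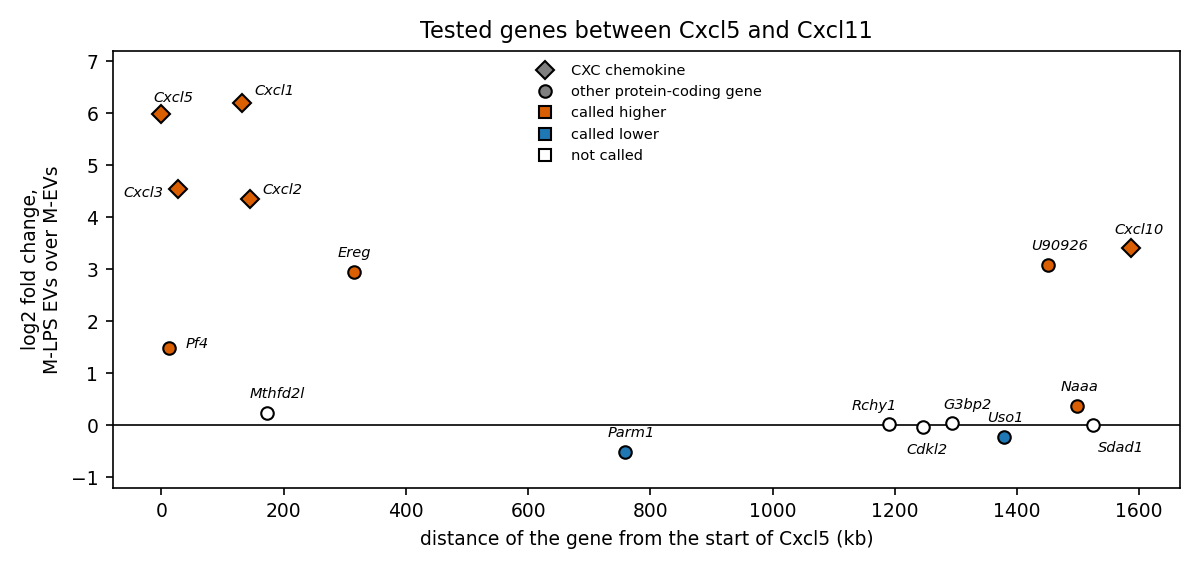
Log2 fold change (M-LPS EVs over M-EVs) of the tested protein-coding genes between Cxcl5 and Cxcl11 against their distance from the start of Cxcl5 in kb; diamonds are CXC chemokines of the 10 studied and circles are other genes. Called-higher genes (orange) sit at both ends and also include Ereg, while genes not called (white) lie between and beside them.

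Of the receptors these ligands use, few were detected in the chondrocyte libraries. Among 11 chemokine receptors, 2 were tested and both were called higher, against 16.4% of all tested genes. Ackr3, a decoy and signalling receptor of Cxcl12, had 27.2 ± 1.95 CPM with M-LPS EVs and 18.8 ± 1.65 CPM with M-EVs (SD, n = 3 each; log2 fold change 0.54, SE 0.07, adjusted p 3.6e-07 by edgeR). Cxcr4, the signalling receptor of Cxcl12, had 1.79 ± 0.0634 CPM with M-LPS EVs and 1.03 ± 0.0134 CPM with M-EVs (log2 fold change 0.80, SE 0.24, adjusted p 0.011 by edgeR). The Cxcr4 call was lost with the effective length offset (0.64, adjusted p 0.084), with limma-trend on TPM (0.42 to 0.60, adjusted p 0.053 to 0.11) and against a change of at least 1.2-fold (adjusted p 0.074). Cxcr1, a further receptor of ELR ligands, had 22 counts in all with M-LPS EVs and 31 with M-EVs, with overlapping groups, and was not tested. Cxcr2, the main receptor of the ELR ligands, had 0 counts in all with M-LPS EVs and 2 with M-EVs, and Cxcr3 had 0 and 1 in the same order. Of 5 other CXC ligands only Pf4 was tested, at 1.27 ± 0.256 CPM with M-LPS EVs and 0.453 ± 0.202 CPM with M-EVs (adjusted p 0.0013 by edgeR); its call was lost with limma-trend on unfiltered TPM (1.26, adjusted p 0.065).

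Of 19 regulators of ELR chemokine transcription and mRNA decay, all tested, 14 were called higher, 1 lower and 4 not called, where 16.4% of all tested genes were called higher and 15.2% lower, and the median log2 value was 0.86, beside 0.00 over all tested genes. Nfkbiz, which encodes IkB-zeta, a nuclear co-activator of NF-kB targets, had 68.1 ± 2.45 CPM with M-LPS EVs and 8.4 ± 0.459 CPM with M-EVs (log2 fold change 3.02, SE 0.05, adjusted p 5.8e-24 by edgeR). Cebpd, a C/EBP transcription factor of the acute phase, had 127 ± 7.49 CPM with M-LPS EVs and 19.2 ± 0.793 CPM with M-EVs (log2 fold change 2.72). Bcl3, a nuclear IkB protein, and Nfkbia, the feedback inhibitor IkB-alpha, rose by 2.37 and 2.21 on the log2 scale. The NF-kB subunits moved less, with Relb at 1.46, Nfkb2 at 0.86, Nfkb1 at 0.58, Rel at 0.32 and Rela at 0.15, all called higher. The Rel call was lost in 10 of 18 alternatives, among them DESeq2 (adjusted p 0.095), limma-voom (0.055), limma-trend on TPM (0.39 to 0.59) and the fits without M-EVs replicate 2 (0.23, adjusted p 0.18), M-LPS EVs replicate 1 (0.24, adjusted p 0.19) or M-LPS EVs replicate 2 (0.23, adjusted p 0.21). The Rela call was lost in 6 of 18, among them DESeq2 (adjusted p 0.067) and limma-trend on TPM (0.15 to 0.18). Zc3h12a, the RNase Regnase-1 that degrades inflammatory mRNAs, showed the list's largest log2 fold change, 3.63 (SE 0.13), and Zfp36, which also promotes decay of such mRNAs, was not called (-0.20, adjusted p 0.073), except without M-EVs replicate 3 (-0.26, adjusted p 0.034). Zfp36l1, of the same gene family as Zfp36, was called higher, at 1.00 (SE 0.04, adjusted p 7.5e-16 by edgeR). The 1 lower gene was Elavl1, an mRNA-stabilising protein, at -0.16 (SE 0.04). Its call was lost in 5 of 18 alternatives, namely the effective length offset (-0.07, adjusted p 0.38), the 3 limma-trend settings on TPM (-0.09, adjusted p 0.31 to 0.44) and a change of at least 1.2-fold. The subunits, Zc3h12a, Zfp36, Zfp36l1 and Elavl1 were singled out after their values had been seen.

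Of 20 interferon regulators of the Cxcr3 ligands, 17 were tested, 11 were called higher, 0 lower and 6 not called (median log2 value 0.33), against 16.4% of all tested genes called higher and 15.2% lower. Ticam2, named after its value had been seen, had the list's largest log2 fold change, 1.41. With M-EVs it had 0.177 to 0.353 CPM, under the filter's minimum of 0.444 CPM. It entered the test only through the M-LPS EVs libraries, so its call supports no direction. Irf1, an interferon-response transcription factor, had 18.6 ± 1.53 CPM with M-LPS EVs and 10.1 ± 0.631 CPM with M-EVs (log2 fold change 0.88, SE 0.08, adjusted p 1.6e-09 by edgeR). Ifngr2, a chain of the interferon-gamma receptor, rose by 0.83 on the log2 scale. Ifnar2, a chain of the type I interferon receptor, rose by 0.37, a call lost against a change of at least 1.2-fold (adjusted p 0.064). The interferon genes Ifnb1 and Ifng had 0 counts in all 6 libraries. Of 12 genes that process or bind chemokines, 11 were tested, 9 called higher, 1 lower and 1 not called, against the same 16.4% and 15.2% of all tested genes. The lower gene, Sdc2, a cell-surface proteoglycan named after its value had been seen, stood at -0.07 (adjusted p 0.033 by edgeR). Its call was lost in 11 of 18 alternatives, among them the effective length offset (adjusted p 0.13), DESeq2 (0.058), limma-trend on TPM (0.096 to 0.11) and 5 of the 6 fits that left out a library (adjusted p 0.06 to 0.13), all but that without M-LPS EVs replicate 3. Mmp13, a collagenase that also cleaves chemokines, had 439 ± 11.8 CPM with M-LPS EVs and 98.2 ± 1.97 CPM with M-EVs (log2 fold change 2.16, SE 0.03, adjusted p 1.0e-27 by edgeR). Sdc4 and Sdc3, cell-surface proteoglycans whose heparan sulfate binds chemokines, rose by 1.18 and 0.41, and Cd44, the hyaluronan receptor, by 0.80.

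**Figure D5:**
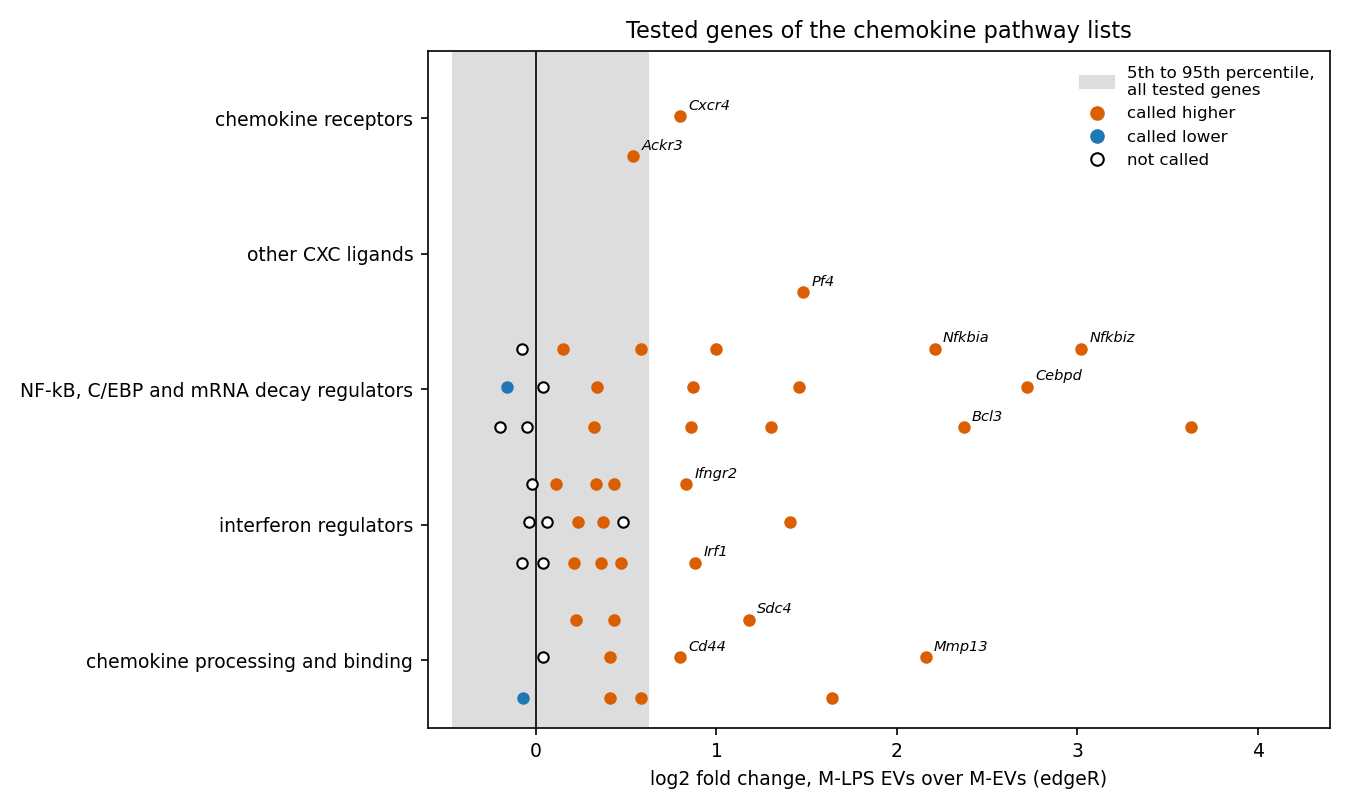
Log2 fold change (M-LPS EVs over M-EVs, edgeR) of the 50 tested genes of the 5 pathway lists. Of these, 37 were called higher (orange), 2 called lower (blue) and 11 not called (white). Points are staggered vertically for legibility only. Labels mark only genes picked for the smallest p of their list, where the value is at least 0.5. The grey band is the 5th to 95th percentile of all tested genes, -0.46 to 0.62, and most interferon regulators lie within it. Zc3h12a (not labelled), Nfkbiz, Cebpd, Bcl3, Nfkbia and Mmp13 lie above 2.

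Genes with the most similar profiles were ranked by the Euclidean distance between gene-centred log2(CPM + 0.5) values over the 6 libraries, a measure that is dominated by the difference between the groups. Nearest to Cxcl1 were Hp (distance 0.383), the gene of haptoglobin, Mmp3 (0.413), the gene of stromelysin-1, and C3 (0.486), the central complement component, with log2 fold changes of 6.33, 6.18 and 6.57. Nearest to Cxcl10 were Bcl3 (0.147), Ptges (0.153), the inducible prostaglandin E synthase, and Nfkbia (0.375). Their log2 fold changes, 2.37, 2.39 and 2.21, are smaller than the 3.40 of Cxcl10, whose low CPM with M-EVs is lifted by the offset of 0.5. Nearest to Cxcl12 were Hes1 (0.0681), a Notch-responsive transcription factor, Dgke (0.0709), a diacylglycerol kinase, and Inka1 (0.0939), none of them called.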

How the data were processed

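mRNA libraries were made with a stranded mRNA kit per the labels' protocols. The submitters' processing notes name STAR, RSEM, DESeq2 and the mm10 build; versions and settings were not given in the sources used here. The authors deposited, for 142699 transcripts per library, an expected count estimated by RSEM, a TPM scaled by effective length, and an IsoPct column, the transcript's percent of its gene. Length columns in the deposited tables give bases. Of the transcripts 99.07% were in GENCODE M21 (GRCm38), and 99.7% of these had the same length, so coordinates (1-based) and types came from there.

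Expected counts and TPM were summed per gene and the counts rounded. edgeR 4.0.16 (R 4.3.3) was run on genes passing filterByExpr at its defaults (minimum count 10, total 15), with TMM scaling and group as sole term; tests were two-sided, with Benjamini-Hochberg adjustment over all tested genes or transcripts and a threshold of 0.05. SE is the log2 fold change divided by the square root of F, 95% intervals use the fit's degrees of freedom, and CPM use TMM-scaled library sizes. Fold changes are M-LPS EVs over M-EVs. Alternatives used limma 3.58.1 and DESeq2 1.42.0. Groups and replicate numbers come from the titles. Named pathway genes are up to 4 per list with the smallest p; 1 of them is not reported here. Members and lists were chosen with earlier results of these data known. Alignments used Biopython 1.88, and the gene test was tested on simulated data.

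Within groups, library pairs differed by a chi-square per degree of freedom of 1.66 to 2.77, so none was counted as a duplicate, and between groups of 26.2 to 33.8. Same-numbered libraries did not deviate together, so numbers were not taken to pair samples. Intervals and limits from counts cover counting error only.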

Additional observations from a re-analysis of the deposited data

How the results depend on the processing

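The counts of called genes varied more than the members. All tested genes called numbered 4614 in the fit reported and 2867 with the effective length offset, 2480, 2495 and 1939 with limma-trend on log2(TPM + 1), log2(TPM + 0.1) and unfiltered log2(TPM + 1), and 1137 against a change of at least 1.2-fold; DESeq2 called 3465. Requiring a mean count of at least 50 left 5 members tested and 4 called (37.5% of all genes tested there were), and moved the median log2 value to 4.55 against 3.88 over the 8 tested members. That median was 2.41, 3.63 and 2.41 under the 3 TPM settings, and 3.72 to 4.04 when a library was left out. Called pathway genes numbered 24 of 50 against a change of at least 1.2-fold, where 7.79% of all tested genes were called. In the fit reported they numbered 39, where 31.6% of all tested genes were called. Hes1, near 0 throughout and not called, had 0.05 with the effective length offset and 0.02, 0.02 and 0.02 with TPM, against -0.20. For these the cause was not tested. Cxcl1, Cxcl5, Cxcl3, Cxcl2 and Cxcl10 were called under every alternative in which they were tested. With a replicate block 4519 genes were called and no member gene changed its call, although Cxcl2-201 (adjusted p 0.17) and Cxcl10-201 (adjusted p 0.072) lost theirs, leaving 5 transcripts; same-numbered libraries correlated at -0.00886, -0.0394 and -0.0182, so no pairing was found by this check. Dgke was called without M-EVs replicate 1 (-0.26, adjusted p 0.04). The median of all genes moved by under 0.1 between scalings (0.00279, 0.000142 and -0.0111). Depth limits Cxcl11, Cxcr2 and Cxcr3, with 0 to 2 counts in a group in all, the size of the Cxcl9 difference, and the M-EVs level of Cxcl2, Cxcl3 and Cxcl10.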
